A study of Mus musculus with 16 samples.

Results

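The enzymes that cut the extracellular matrix of the heart, and the inhibitors that hold them back, were followed in hearts under pressure overload. The gene count table held 50 protein-coding genes whose symbol begins with Mmp, Adamts, Adamtsl or Timp and goes on with a digit, among 55573 genes in all. They comprised 22 matrix metalloproteinases (MMPs), 19 ADAMTS proteases, 5 ADAMTS-like genes and 4 tissue inhibitors of metalloproteinases (TIMPs), taken by their symbols. A filter of at least 10 counts in 4 or more of the 16 mice was passed by 36 of them, namely 12 MMPs, 15 ADAMTS genes, all 5 ADAMTS-like genes and all 4 TIMPs. Of the 14 that did not pass it, 7 were at 0 counts in all 16 mice (Mmp1b, Mmp7, Mmp20, Mmp21, Adamts13, Adamts16 and Adamts18) and the other 7 (Mmp8, Mmp10, Mmp16, Mmp24, Mmp25, Mmp27 and Adamts20) never exceeded 16 counts in a mouse.

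MMPs are zinc-dependent endopeptidases that are made as inactive proenzymes, either secreted or anchored at the cell surface, and between them they cleave collagens, gelatins, elastin and many non-matrix proteins. ADAMTS proteases are secreted relatives that carry thrombospondin repeats and have narrower substrates, such as procollagen propeptides and the proteoglycan versican, whereas ADAMTS-like proteins have the same ancillary domains without a protease domain and bind the fibrillin microfibrils of the matrix. TIMPs block the active site of these enzymes, and the balance between them is known to set how collagen is laid down and removed when the left ventricle remodels.

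RNA came from the heart apex of 16 male mice, 4 in each of 4 groups, that had received as newborns an adeno-associated virus of serotype 9 with the cardiomyocyte-specific cTNT promoter. The virus carried either GFP (AAV9-GFP, labelled AAV9-cTNT-GFP) or the long noncoding RNA Cardinal (AAV9-Cardinal, labelled AAV9-cTNT-CARDINAL), so a transgene was expected in cardiomyocytes and not in the fibroblasts and other cells of the tissue. For each virus there were mice with a sham operation and mice with transverse aortic constriction (TAC), which raises the pressure against which the left ventricle pumps, and hearts were collected 4 weeks after surgery. All 4 groups had a virus and an operation, so no group was free of both. Poly(A)-selected libraries gave between 16441997 and 21904589 counts per mouse, at which 3 counts correspond to between 0.126 and 0.195 CPM (counts scaled to a common library total with TMM factors, the unit of all levels here). This floor covers counting error only.

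Cardinal itself, listed as Gm12295, was between 18.3 and 93.9 CPM in the 8 AAV9-Cardinal mice and between 3.42 and 7.24 CPM in the 8 AAV9-GFP mice. The highest value belonged to AAV9-Cardinal TAC replicate 1, which stood apart from the other mice, and the counts of members in the comparisons of AAV9-Cardinal TAC hearts with AAV9-Cardinal sham and with AAV9-GFP TAC hearts are given with and without it. The cardiomyocyte markers Myh6, Actc1, Tnnt2, Tnni3, Ryr2 and Pln summed to 39000 to 42000 CPM in AAV9-GFP sham mice. In AAV9-GFP TAC mice they summed to 29900 to 36000 CPM, below every AAV9-GFP sham mouse. With AAV9-Cardinal the sums were 37800 to 41600 CPM after sham and 36200 to 39100 CPM after TAC. The atrial markers Sln, Myl4 and Myl7 summed to at most 2.40 CPM in a mouse. Of these Myl4 was detected, at a mean of 1.03 CPM, and Sln and Myl7 were at 0 in all mice of 3 of the 4 groups.

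Levels between genes were compared per length, as mean CPM per kb of annotated exon. In AAV9-GFP sham hearts the inhibitors led, with Timp3 at 40.6 and Timp2 at 21 CPM per kb. Next came Adamtsl5 (13.7 CPM per kb), Mmp15 (13.6), Adamts1 (9.44), Adamtsl4 (9.22), Mmp2 (9.10) and Timp4 (5.59), while the remaining 28 members lay between 0.0165 CPM per kb for Adamts19 and 2.69 CPM per kb for Adamts10. Sums per kb were taken over all 50 members, with the 14 that did not pass the filter included. The 4 TIMPs together made up 47.8% of the summed level in AAV9-GFP sham hearts (range 46.4% to 51.0% over 4 mice) and 42.9% in AAV9-GFP TAC hearts (39.9% to 45.8%). In AAV9-Cardinal hearts the TIMP share was 47.4% after sham (46.5% to 48.4%) and 44.8% after TAC (39.7% to 49.1%). The mice of AAV9-GFP TAC all lay below those of AAV9-GFP sham in this share, and those of AAV9-Cardinal TAC overlapped with their sham mice. The summed TIMP level itself was nearly equal in AAV9-GFP hearts, at 68.2 ± 3.9 CPM per kb after sham and 68.1 ± 7.7 CPM per kb after TAC (SD, n = 4). Within this sum the mean of Timp3 went from 40.6 to 33.7 CPM per kb and that of Timp1 from 1.05 to 7.57. Timp2 went from 21 to 21.5 and Timp4 from 5.59 to 5.3 CPM per kb. The other sums were higher in their means after TAC, going from 20.5 to 25.7 CPM per kb for the ADAMTS genes, from 24.6 to 32.5 for the ADAMTS-like genes and from 29.4 to 32.2 for the MMPs.

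**Figure D1:**
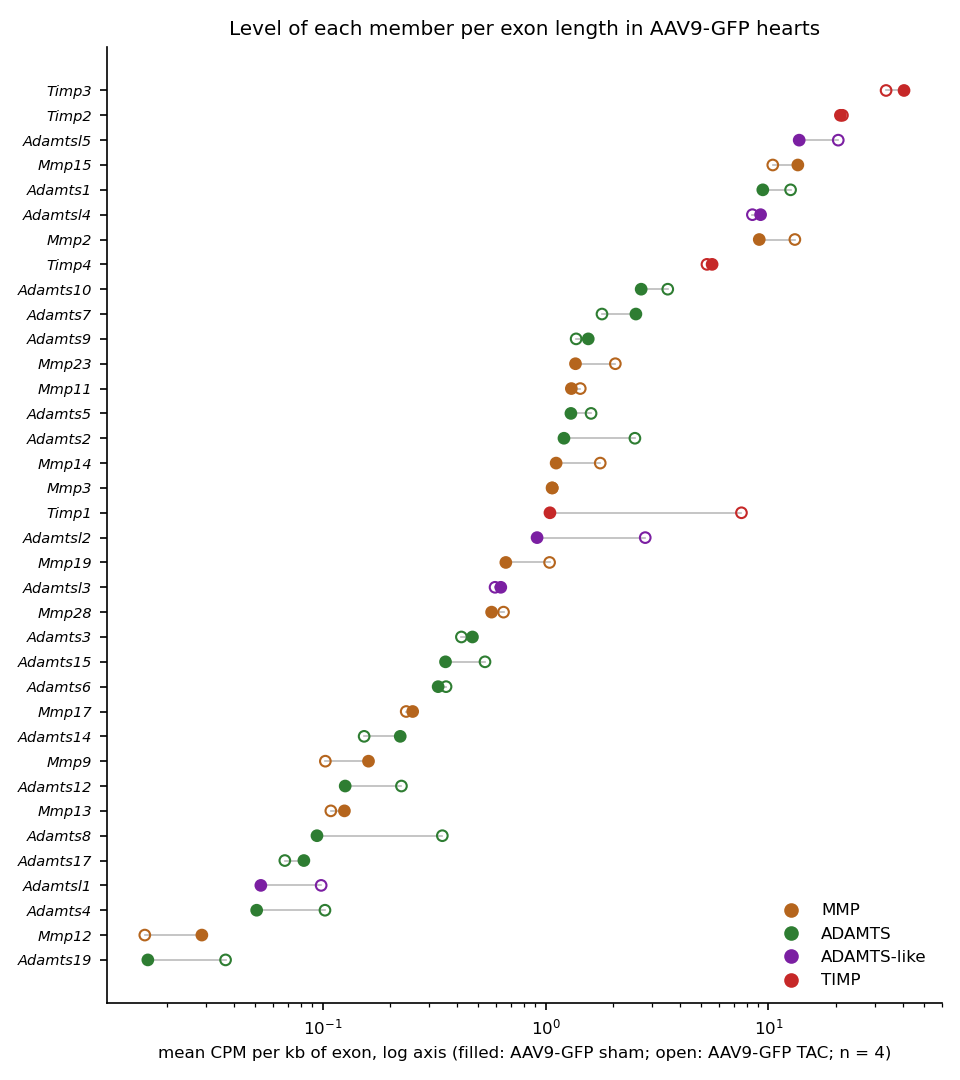
Each row is 1 of the 36 members, the horizontal log axis gives the mean CPM per kb of exon over 4 mice (filled circles, AAV9-GFP sham; open circles, AAV9-GFP TAC), and color marks the family. Timp3 and Timp2 stand highest, at 40.6 and 21 CPM per kb after sham, and the widest gap between the circles belongs to Timp1, from 1.05 to 7.57 CPM per kb.

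The effect of TAC was first examined in mice with the control virus. Of the 36 members, 12 (33.3%) passed an adjusted p of 0.05 in AAV9-GFP TAC against AAV9-GFP sham hearts (edgeR quasi-likelihood test on all 16 mice, Benjamini-Hochberg adjustment over all 16971 genes tested, the source of every adjusted p below), beside 17.3% of all genes tested. Higher after TAC were 11 of them, beside 8.42% of all genes in that direction, and 1 was lower, beside 8.89%. The median log2 fold change was 0.155 over the members and 0.0047 over all genes. The libraries of these groups also differed, with mitochondrially encoded genes at 32.8% to 34.0% of counts after sham and 30.3% to 31.0% after TAC, and TMM factors of 0.940 to 0.976 and 1.05 to 1.09. With those genes left out the same 12 members passed. By family, 3 MMPs rose and 1 fell of 12, 4 of 15 ADAMTS genes rose, 3 of 5 ADAMTS-like genes rose, and 1 of 4 TIMPs rose. In 12 members every TAC mouse was above every sham mouse, beside 9.99% of all genes, and in none was every TAC mouse lower, beside 10.2%. For each of these 12 without overlap the exact two-sided permutation p was 0.029, the smallest that 4 mice against 4 can give. That value follows from the separation by which they were picked and is no further support.

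Among the MMPs, Mmp2 encodes gelatinase A, which cleaves denatured collagen and basement membrane collagen. It measured 29.2, 29.5, 31.9 and 31.9 CPM in AAV9-GFP sham mice and 32.9, 39.5, 47.4 and 57.5 CPM in AAV9-GFP TAC mice. The sham mice lay close together and the TAC mice were spread above them without overlap, a log2 fold change of 0.53 (SE 0.135, adjusted p = 0.0134). Its activator at the cell surface is encoded by Mmp14 (membrane-type 1 MMP), which also cleaves fibrillar collagen. Mmp14 was at 5.13, 6.20, 7.35 and 7.94 CPM after sham and at 8.95, 9.27, 10.9 and 12.8 CPM after TAC. The groups did not overlap, and the log2 fold change was 0.66 (SE 0.143, adjusted p = 0.0054). Mmp23, whose enzyme lacks the hemopexin-like domain of most MMPs, was at 2.98, 3.12, 3.23 and 3.43 CPM after sham and 4.46, 4.52, 5.07 and 5.20 CPM after TAC. Both groups were tight and clearly apart, with a log2 fold change of 0.59 (SE 0.125, adjusted p = 0.00438).

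Mmp15, the gene of membrane-type 2 MMP and the MMP with the highest level, was the single member that was lower after TAC. It ranged from 68.5 to 78.9 CPM in AAV9-GFP sham mice and from 46.0 to 69.7 CPM in AAV9-GFP TAC mice, with the highest TAC mouse inside the sham range (log2 fold change -0.37, SE 0.117, adjusted p = 0.0395, exact two-sided permutation p = 0.0571). This call was lost when any of AAV9-GFP sham replicates 1 to 4 or AAV9-GFP TAC replicates 3 and 7 was left out, with adjusted p between 0.0537 and 0.129. It was also lost with no filter on low counts (adjusted p = 0.0607), with only the 8 AAV9-GFP mice in the fit (0.0823) and with the mouse number as a block (0.109). The third membrane-type gene that passed the filter, Mmp17, had similar means of 1.68 ± 0.25 CPM after sham and 1.57 ± 0.15 CPM after TAC (SD, n = 4), and a log2 fold change of -0.10 (SE 0.143, adjusted p = 0.764).

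The other MMPs did not pass the threshold. Mmp9, which encodes gelatinase B, an enzyme of leukocytes and other cells, was low at 0.569 ± 0.13 CPM after sham and 0.364 ± 0.27 CPM after TAC (SD, n = 4), with 1 TAC mouse at 0 counts. Its log2 fold change was -0.63 (SE 0.68, adjusted p = 0.599). The collagenase gene Mmp13 was at 0.335 ± 0.29 and 0.291 ± 0.078 CPM (SD, n = 4), only just above the floor of 3 counts, so that little could be seen at this depth. Mmp11, the gene of stromelysin 3, had means of 3.63 ± 0.55 CPM after sham and 3.98 ± 1.1 CPM after TAC (SD, n = 4; adjusted p = 0.707).

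Of the ADAMTS genes, Adamts2 had the smallest adjusted p. It encodes the main procollagen N-proteinase, which removes the amino-terminal propeptide so that fibrillar collagen can assemble. Its level was 9.84, 11.4, 11.7 and 12.3 CPM in AAV9-GFP sham mice and 21.2, 22, 22.8 and 28.1 CPM in AAV9-GFP TAC mice. The groups lay far apart, with a fold of 2.08 (log2 fold change 1.06, SE 0.153, adjusted p = 0.000292). The other procollagen N-propeptidase genes, Adamts3 and Adamts14, had lower means after TAC that did not pass (log2 fold changes -0.17 and -0.54, adjusted p = 0.719 and 0.206).

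The proteoglycan-cleaving group held 6 members that passed the filter, of which Adamts8 rose. Adamts8 measured 0.288, 0.294, 0.426 and 0.733 CPM after sham and 1.31, 1.43, 1.43 and 2.18 CPM after TAC. These are small counts, between 6 and 15 reads per sham mouse and between 30 and 51 per TAC mouse, and the groups did not overlap (log2 fold change 1.86, SE 0.395, adjusted p = 0.00459). Adamts8 passed the filter through the TAC mice. Its place among the members that rose and those without overlap is therefore not independent of the filter. Of the exon bases of Adamts8, 10.6% overlap a gene on the opposite strand, Gm29724, and the use of strand in the counting was not given in the sources used here. Adamts15 was at 2.79 to 4.45 CPM after sham and at 4.74 to 6.55 CPM after TAC, without overlap, but did not pass (log2 fold change 0.59, SE 0.217, adjusted p = 0.079). Its adjusted p was 0.0322 without AAV9-Cardinal TAC replicate 1 and 0.0436 with only the 8 AAV9-GFP mice in the fit. Adamts1, the most abundant protease of the group and a versican-cleaving enzyme, ranged from 35.6 to 74.4 CPM after sham and from 62.5 to 74.9 CPM after TAC, with overlapping groups and an adjusted p of 0.283.

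Adamts12 belongs to the enzymes that cleave cartilage oligomeric matrix protein. It was at 0.994, 1.32, 1.54 and 1.66 CPM after sham and at 1.85, 2.1, 2.48 and 3.43 CPM after TAC. Every TAC mouse was above the sham mice (log2 fold change 0.84, SE 0.205, adjusted p = 0.0108). Adamts7, its closest relative, went the other way in its means, 16 ± 6.7 CPM after sham and 11.3 ± 3.3 CPM after TAC (SD, n = 4), with overlap and an adjusted p of 0.247. In both sham groups Adamts7 was uneven, with 1 AAV9-GFP sham mouse at 25.9 and the rest between 12 and 13.1 CPM, and AAV9-Cardinal sham mice at 11.0, 11.2, 21.1 and 21.7 CPM.

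Adamts10, whose product associates with fibrillin microfibrils, had 19.9, 21.8, 22.5 and 24.4 CPM after sham and 25.3, 28.0, 29.6 and 33.8 CPM after TAC. The shift was small but without overlap (log2 fold change 0.40, SE 0.0955, adjusted p = 0.00992). Besides Adamts15, 10 ADAMTS genes did not pass the threshold in AAV9-GFP hearts, with adjusted p between 0.148 for Adamts5 and 0.775 for Adamts17.

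With 3 of 5, the ADAMTS-like genes had the largest share past the threshold among the 4 families. Adamtsl5, which encodes a matrix protein that binds fibrillin microfibrils and heparin, had the smallest adjusted p of all members. It was at 62.3, 63.8, 66.2 and 67.2 CPM in AAV9-GFP sham mice and at 90.9, 91.6, 103 and 103 CPM in AAV9-GFP TAC mice. The mice of each group were nearly equal and the groups were far apart for that spread, with a fold of 1.5 (log2 fold change 0.58, SE 0.075, adjusted p = 0.000125). Adamtsl2, a gene mutated in geleophysic dysplasia whose product binds latent TGF-beta binding protein, was at 4.59, 7.48, 7.78 and 9.46 CPM after sham and at 12.4, 21.3, 27.2 and 28.7 CPM after TAC. All TAC mice were above all sham mice and 1 of them was well below the rest, with a fold of 3.06 (log2 fold change 1.61, SE 0.319, adjusted p = 0.00286). Adamtsl1, also called punctin, was at 0.538 to 0.912 CPM after sham and at 1.13 to 1.37 CPM after TAC, again without overlap (log2 fold change 0.89, SE 0.233, adjusted p = 0.0155). Its adjusted p was 0.0515 without AAV9-GFP sham replicate 3. Adamtsl3 and Adamtsl4 did not pass (adjusted p = 0.821 and 0.616).

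Timp1, which encodes a secreted inhibitor of most MMPs, had the largest fold change of the members. It was at 0, 1.08, 1.18 and 1.47 CPM in AAV9-GFP sham mice and at 3.94, 5.95, 7.30 and 9.69 CPM in AAV9-GFP TAC mice. All TAC mice were high, the sham mice were low, and the log2 fold change was 2.85 (SE 0.483, fold 7.19, adjusted p = 0.000998). The sham mouse at 0, replicate 2, had no Timp1 count where the others had between 22 and 31. Without it the log2 fold change was 2.43 (adjusted p = 0.000673). Of the 1801 genes with a mean of 12 to 25 counts, 187 (10.4%) were at 0 in at least 1 mouse.

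The 3 other inhibitors, which together carried most of the TIMP level, did not pass the threshold in AAV9-GFP hearts. Timp3, whose product stays bound to the matrix and also blocks ADAM and ADAMTS enzymes, was at 305, 313, 345 and 359 CPM after sham and 235, 240, 305 and 318 CPM after TAC. The upper TAC mice lay among the sham mice (log2 fold change -0.27, SE 0.131, adjusted p = 0.19). Of the exon bases of Timp3, 21.3% overlap Syn3 on the opposite strand. Timp2, an inhibitor that also takes part in the activation of gelatinase A, was at 77.1, 77.9, 85.4 and 87.4 CPM after sham and 73.0, 76.7, 84.5 and 101 CPM after TAC, with the TAC mice on both sides of the sham mice (log2 fold change 0.03, SE 0.107, adjusted p = 0.895). Timp4, known for its high expression in the heart, was at 27.9, 32.2, 34.7 and 37.0 CPM after sham and 19.1, 21.3, 33.9 and 50.5 CPM after TAC. Its TAC mice spread to either side of the sham range (log2 fold change -0.08, SE 0.23, adjusted p = 0.875).

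**Figure D2:**
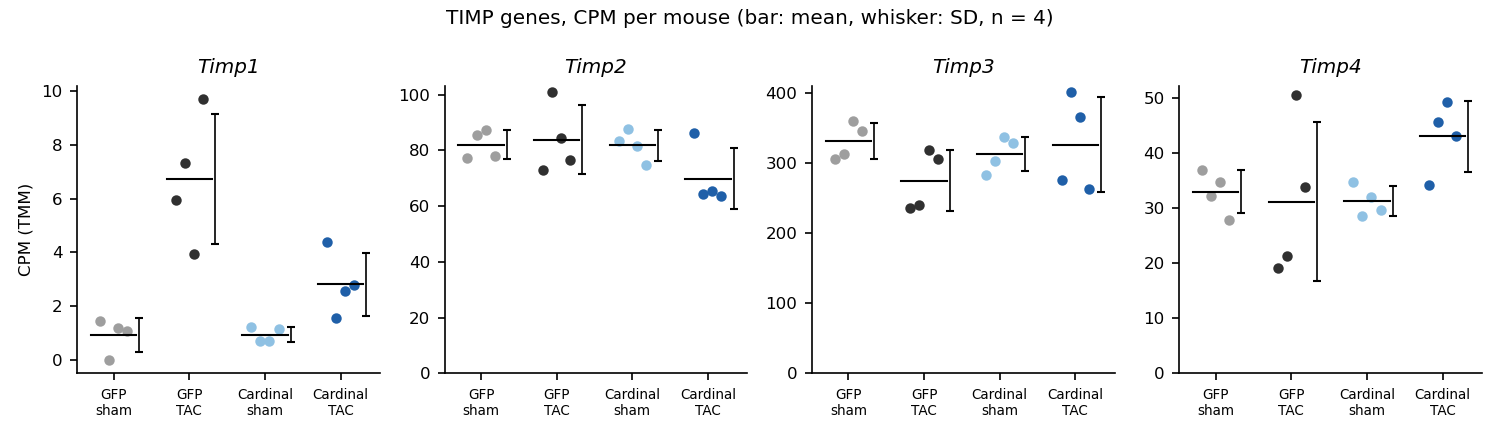
Points are single mice, the vertical axis of each panel gives CPM on a linear scale, and each bar and whisker show the mean and SD of 4 mice in the 4 groups. Timp1 is at 1.47 CPM or below in AAV9-GFP sham and from 3.94 to 9.69 CPM in AAV9-GFP TAC mice, whereas the sham and TAC mice of Timp2, Timp3 and Timp4 overlap in AAV9-GFP hearts.

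The promoters of Timp1, the member with the largest fold change, and of Adamts2, Adamtsl2 and Adamtsl5, the members past the threshold after TAC with both viruses, are shown as the 250 bases before the transcription start (RefSeq, GRCm38.p6, 5′ to 3′ along the gene). Capitals mark matches on either strand to 4 motifs, the AP-1 site TGANTCA, the TATA box TATAAA, the GC box GGGCGG and the TEAD core GGAATG, none of which overlapped another in these windows.
Timp1 (chrX:20869916-20870165, plus strand): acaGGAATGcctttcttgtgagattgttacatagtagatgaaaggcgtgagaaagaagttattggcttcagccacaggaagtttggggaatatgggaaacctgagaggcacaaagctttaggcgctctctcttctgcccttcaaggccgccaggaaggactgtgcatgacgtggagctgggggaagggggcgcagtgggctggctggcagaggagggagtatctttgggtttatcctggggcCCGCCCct
Adamts2 (chr11:50601835-50602084, plus strand): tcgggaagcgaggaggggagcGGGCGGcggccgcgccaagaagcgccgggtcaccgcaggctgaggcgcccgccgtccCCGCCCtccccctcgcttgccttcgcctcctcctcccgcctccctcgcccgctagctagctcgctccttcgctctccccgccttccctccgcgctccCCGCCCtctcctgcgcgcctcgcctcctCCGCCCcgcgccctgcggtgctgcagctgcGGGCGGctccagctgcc
Adamtsl2 (chr2:27079129-27079378, plus strand): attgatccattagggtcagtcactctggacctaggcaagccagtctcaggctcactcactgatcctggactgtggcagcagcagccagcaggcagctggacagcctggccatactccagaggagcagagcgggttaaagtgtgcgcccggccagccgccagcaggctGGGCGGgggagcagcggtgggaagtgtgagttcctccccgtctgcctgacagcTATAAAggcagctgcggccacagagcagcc
Adamtsl5 (chr10:80348449-80348698, minus strand): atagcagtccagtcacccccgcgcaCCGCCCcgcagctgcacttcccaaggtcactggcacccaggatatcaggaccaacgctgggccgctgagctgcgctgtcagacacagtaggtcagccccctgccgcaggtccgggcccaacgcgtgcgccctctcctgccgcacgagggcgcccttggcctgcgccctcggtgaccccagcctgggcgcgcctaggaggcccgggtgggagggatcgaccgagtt
The Timp1 window holds a TEAD core 247 to 242 bases before the start and a GC box at 8 to 3, Adamts2 holds 5 GC boxes, Adamtsl2 a GC box at 83 to 78 and a TATA box at 30 to 25, and Adamtsl5 a GC box at 225 to 220. Among all 32851 promoter windows of the same length, 32.7% hold a GC box, 12.6% a TEAD core, 12.4% a TATA box and 6.75% an AP-1 site. Among the 25 windows of the 23 members that passed the filter and matched an entry, 16 hold a GC box, 4 a TATA box (Adamts1, Adamtsl2, Mmp3 and Mmp13), 3 an AP-1 site (Mmp3, Mmp12 and Mmp13) and 1 a TEAD core (Timp1). These matches are letters in a window and were not tested for binding.

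The effect of TAC was then examined in mice that overexpressed Cardinal. In AAV9-Cardinal TAC against AAV9-Cardinal sham hearts, 5 of 36 members (13.9%) passed the threshold, beside 6.42% of all genes, and all 5 were higher, beside 3.04% higher and 3.38% lower over all genes. They were Adamtsl5, Adamts2, Adamtsl2, Adamts15 and Adamts1, so that none of the 12 MMPs and none of the 4 TIMPs was among them in edgeR. An unadjusted p under 0.05 was found in 16 members, 7 MMPs and 1 TIMP among them, beside 3684 of the 16971 genes. The absence of MMPs and TIMPs depended on the test. DESeq2, which called 1370 of 16966 genes in all, called the same 5 and also Timp1 (adjusted p = 0.0303), Mmp3 (0.019) and Mmp19 (0.0417) as higher and Mmp15 (0.0361) as lower. With only the 8 AAV9-Cardinal mice edgeR called 840 of 16971 genes, among them Adamtsl5 with Timp1 (0.0315), Timp4 (0.0487), Mmp19 (0.0315) and Mmp28 (0.0413). The median log2 fold change was 0.0863 over the members (0.0962 without Mmp12, which was at 0 counts in all 4 TAC mice) and -0.00037 over all genes. In 7 members every TAC mouse was above every sham mouse, beside 6.45% of all genes (the reverse was seen in none, beside 7.18%), namely the called Adamtsl5, Adamtsl2 and Adamts1 and also Adamts8, Timp1, Mmp19 and Mmp28. Without AAV9-Cardinal TAC replicate 1 the TAC mice were all above the sham mice in 9 members, beside 11.2% of all genes, and all below in 6, beside 12.8%.

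Adamtsl5 was at 60.6, 61.9, 65.0 and 67.9 CPM in AAV9-Cardinal sham mice and at 78.3, 82.5, 86.0 and 103 CPM in AAV9-Cardinal TAC mice. The groups did not overlap (log2 fold change 0.45, SE 0.0751, adjusted p = 0.00442). Adamtsl2 was at 3.71, 4.60, 6.69 and 11.2 CPM after sham and at 13.4, 13.4, 14.1 and 20.1 CPM after TAC. All TAC mice were above the sham mice, with the highest in replicate 1 (log2 fold change 1.22, SE 0.326, adjusted p = 0.0392). Adamts2 was at 9.35, 10.1, 11.0 and 12.5 CPM after sham and at 12.1, 15.1, 16.4 and 22.2 CPM after TAC, so that the lowest TAC mouse lay inside the sham range (log2 fold change 0.61, SE 0.155, adjusted p = 0.0317, exact two-sided permutation p = 0.0571).

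The versican-cleaving enzymes Adamts1 and Adamts15 passed in this comparison. Adamts1 ranged from 29.1 to 57.9 CPM after sham and from 63.3 to 111 CPM after TAC, without overlap (log2 fold change 0.89, SE 0.245, adjusted p = 0.0445). Adamts15 ranged from 2.69 to 3.71 CPM after sham and from 3.67 to 7.69 CPM after TAC, with 1 TAC mouse inside the sham range (log2 fold change 0.80, SE 0.22, adjusted p = 0.0437). On testing the response with AAV9-Cardinal minus that with AAV9-GFP, the difference was 0.48 for Adamts1 (SE 0.345, adjusted p = 0.669) and 0.22 for Adamts15 (SE 0.31, adjusted p = 0.854) on the log2 scale, so a larger response with AAV9-Cardinal was not shown. The count of 5 was sensitive to single mice. It was 1 without AAV9-Cardinal sham replicate 2 or AAV9-Cardinal TAC replicate 5, 2 without AAV9-Cardinal sham replicate 1 or 4 or AAV9-Cardinal TAC replicate 6, and 3 without AAV9-Cardinal sham replicate 3, AAV9-Cardinal TAC replicate 4, AAV9-GFP sham replicate 2 or AAV9-GFP TAC replicate 4. Over all genes the count fell too, from 1089 to between 393 and 932 in these fits. With each of the 16 mice left out in turn it ranged from 393 to 1443. Without AAV9-Cardinal TAC replicate 1 the count of members was again 5 with 3 of them shared, since Adamts2 (adjusted p = 0.0524) and Adamtsl2 (0.0715) did not pass, and Mmp15 (0.0289) and Timp2 (0.0366) passed as lower. Adamtsl5 kept its call in all of these fits, and the adjusted p of the other 4 genes reached between 0.08 and 0.14.

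Some members separated without overlap and did not pass the threshold. Timp1 was at 0.697, 0.721, 1.17 and 1.22 CPM in AAV9-Cardinal sham mice and at 1.55, 2.56, 2.81 and 4.38 CPM in AAV9-Cardinal TAC mice. The groups did not overlap, and the log2 fold change was 1.58 (SE 0.512, adjusted p = 0.082). Adamts8, which passed the filter through the TAC mice, was at 0, 0.186, 0.288 and 0.454 CPM after sham and at 0.512, 0.783, 0.796 and 0.799 CPM after TAC, also without overlap (log2 fold change 1.72, SE 0.495, adjusted p = 0.0518). Timp1 passed with DESeq2 and with only the 8 mice, as given above. Without AAV9-GFP sham replicate 2 the adjusted p of Timp1 was 0.0231, and without AAV9-Cardinal sham replicate 4 that of Adamts8 was 0.0392. Mmp3, the gene of stromelysin 1, had means of 1.26 ± 0.32 CPM after sham and 2.74 ± 1.3 CPM after TAC (SD, n = 4; log2 fold change 1.13, SE 0.326, adjusted p = 0.0517), with 1 TAC mouse at 1.06 CPM below most sham mice and an adjusted p of 0.00883 without that mouse, replicate 6. Mmp12, the gene of macrophage elastase, was at 0, 11, 12 and 22 counts in the sham mice and at 0 counts in all 4 TAC mice, too few for a fold change.

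Neither gelatinase gene passed the threshold in AAV9-Cardinal hearts, and nor did Mmp14. Mmp2 was at 26.5, 27.2, 28.9 and 30.1 CPM after sham and at 27.4, 28.6, 30.3 and 37.3 CPM after TAC, with overlapping groups (log2 fold change 0.13, SE 0.137, adjusted p = 0.642). Mmp14 was at 5.48, 5.83, 5.95 and 7.46 CPM after sham and at 6.86, 6.91, 7.96 and 8.24 CPM after TAC, with 1 sham mouse among the TAC mice (log2 fold change 0.28, SE 0.147, adjusted p = 0.282). Mmp9 had 0 counts in 2 TAC mice, and its means were 0.688 ± 0.25 and 0.181 ± 0.21 CPM (SD, n = 4; adjusted p = 0.163).

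Others among the genes that rose in AAV9-GFP hearts did not pass the threshold with AAV9-Cardinal. Mmp23 was at 2.53, 2.79, 2.94 and 3.08 CPM after sham and at 2.63, 3.27, 3.44 and 4.42 CPM after TAC, with overlap (adjusted p = 0.232). Adamts10 was at 20.4, 21.3, 23.2 and 24.8 CPM after sham and at 22.3, 22.3, 23.0 and 27.2 CPM after TAC, again with overlap (adjusted p = 0.721). Adamts12 was at 0.904, 0.976, 1.04 and 1.35 CPM after sham and at 1.34, 1.58, 1.65 and 1.90 CPM after TAC, where only the lowest TAC mouse met the highest sham mouse (log2 fold change 0.60, SE 0.222, adjusted p = 0.124). Mmp15 was lower in its mean, 60.2 ± 8.3 CPM after TAC against 77.2 ± 4.2 CPM after sham (SD, n = 4), with a log2 fold change of -0.36 close to that with AAV9-GFP and an adjusted p of 0.084. It passed with DESeq2 and without AAV9-Cardinal TAC replicate 1, as given above, and without AAV9-GFP TAC replicate 1 (adjusted p = 0.0421).

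Of the abundant inhibitors, Timp2 was at 74.6, 81.4, 83.4 and 87.7 CPM in AAV9-Cardinal sham mice and at 63.5, 64.2, 65.4 and 86.3 CPM in AAV9-Cardinal TAC mice. All but replicate 1 of the TAC mice were below the sham mice (log2 fold change -0.23, SE 0.107, adjusted p = 0.232), and without that replicate the log2 fold change was -0.34 (adjusted p = 0.0366). Timp3 was at 283, 303, 328 and 337 CPM after sham and at 263, 275, 365 and 401 CPM after TAC, on both sides of the sham mice (adjusted p = 0.864). Timp4 was at 28.6, 29.6, 32 and 34.8 CPM after sham and at 34.2, 43.1, 45.7 and 49.3 CPM after TAC, where the lowest TAC mouse lay just under the highest sham mouse (log2 fold change 0.46, SE 0.229, adjusted p = 0.26).

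**Figure D3:**
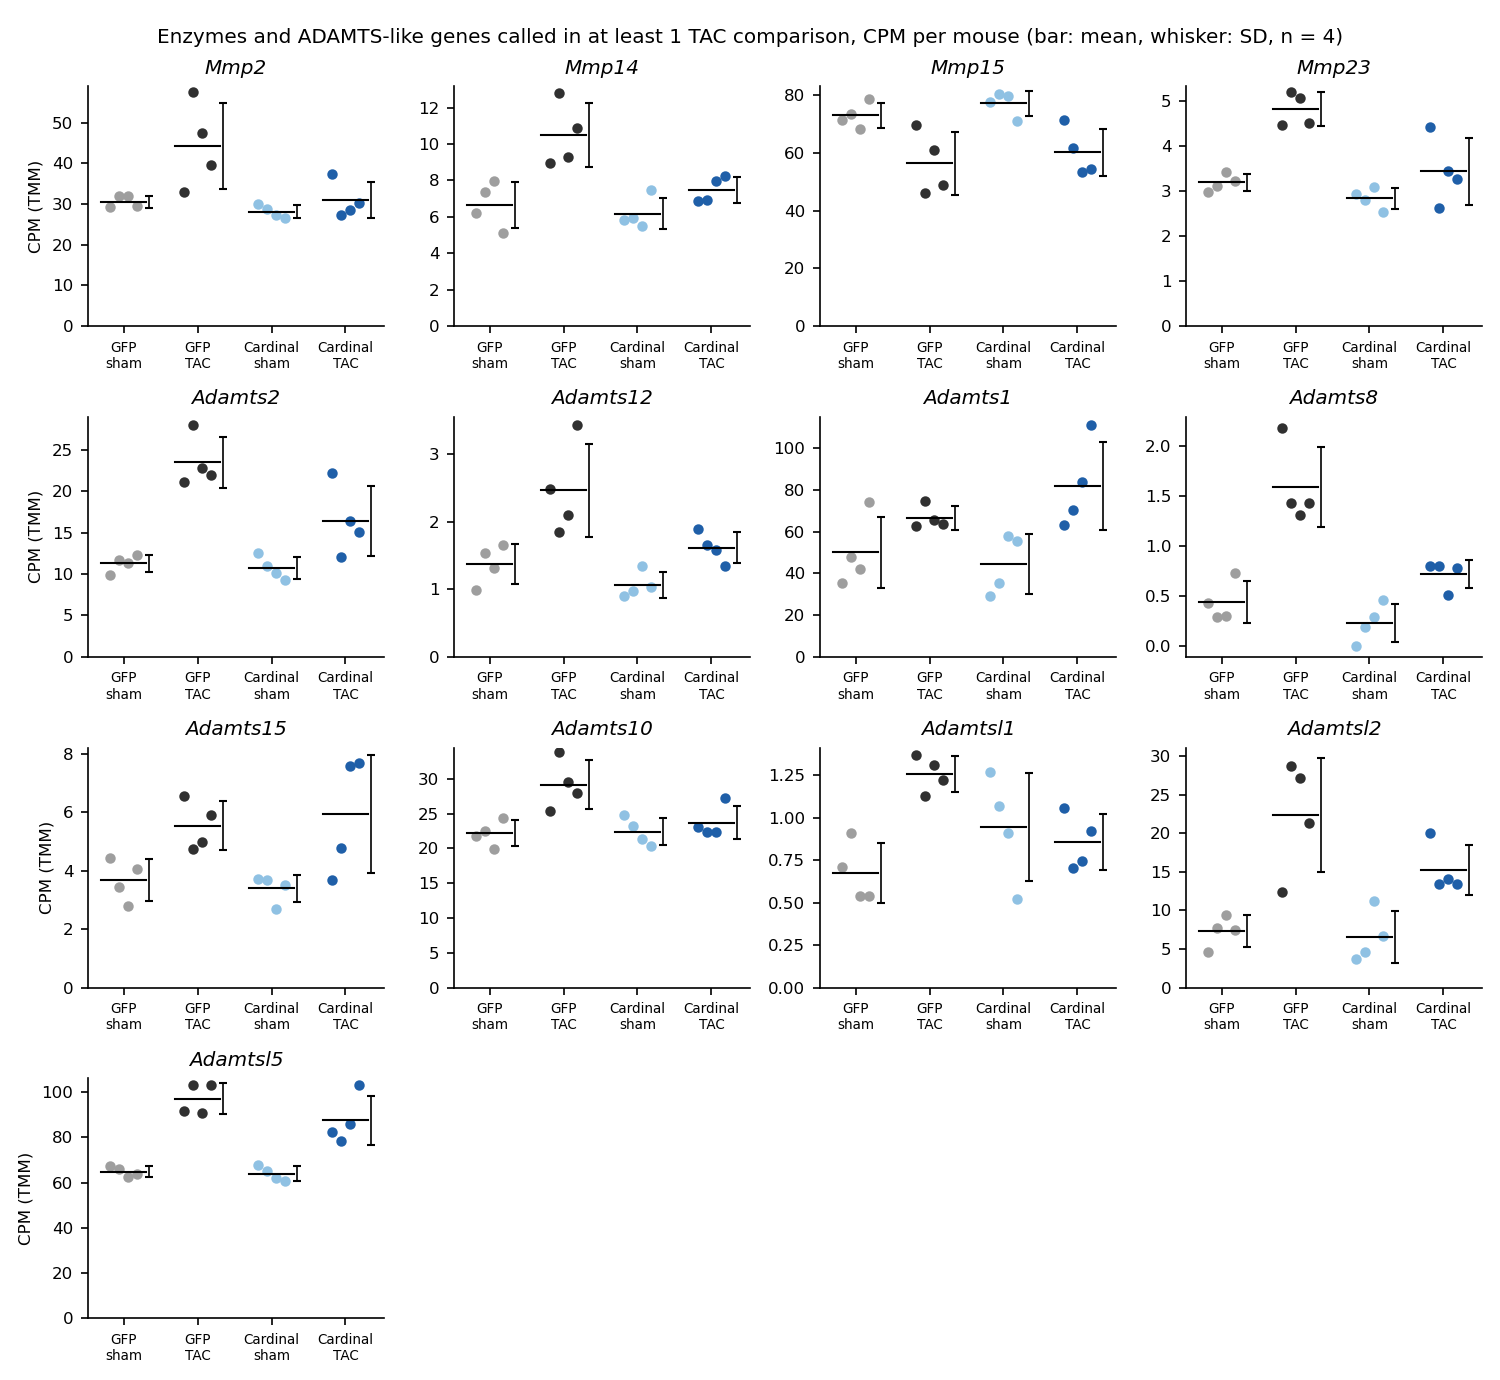
Points are single mice, the vertical axis of each panel gives CPM on a linear scale, and each bar and whisker show the mean and SD of 4 mice, for the 13 proteases and ADAMTS-like genes past the threshold in AAV9-GFP or AAV9-Cardinal TAC hearts. Mmp2 reaches 57.5 CPM in AAV9-GFP TAC and 37.3 CPM in AAV9-Cardinal TAC mice, and Adamts1 is highest in AAV9-Cardinal TAC mice, at up to 111 CPM.

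Whether Cardinal changed these genes in the stressed heart was asked by comparing the viruses in TAC hearts. None of the 36 members passed the threshold in edgeR's quasi-likelihood test, beside 0.1% of all genes (17 genes). An unadjusted p under 0.05 was found in 11 members, beside 2532 of the 16971 genes. DESeq2 called 3 members, beside 415 of 16966 genes. All 3 were lower with AAV9-Cardinal (Mmp2, adjusted p = 0.0134, Adamts2, adjusted p = 0.0378, and Mmp11, adjusted p = 0.0457). The log2 fold change was below 0 in 26 members and above 0 in 10, with a median of -0.19 over the members and -0.0066 over all genes. In 5 members the AAV9-Cardinal TAC mice lay without overlap under those given AAV9-GFP, beside 3.18% of all genes, and none lay above, beside 3.55%. The 5 were Mmp11, Mmp14, Mmp23, Adamts8 and Adamtsl1. Without AAV9-Cardinal TAC replicate 1, 10 members lay below without overlap, beside 8.53% of all genes (the same 5 and Mmp2, Adamts2, Adamts12, Timp1 and Timp2), and 1, Adamts9, lay above, beside 8.49%.

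The per-mouse values given above show these gaps directly. Mmp14 was at 8.95 CPM or more in AAV9-GFP TAC mice and at 8.24 CPM or less in AAV9-Cardinal TAC mice (log2 fold change -0.49, SE 0.141, adjusted p = 0.129). Mmp23 was at 4.46 CPM or more and at 4.42 CPM or less (log2 fold change -0.48, SE 0.124, adjusted p = 0.0999). The upper bound of Mmp23 came from AAV9-Cardinal TAC replicate 1, without which its adjusted p was 0.00916. Adamts8 was at 1.31 CPM or more and at 0.799 CPM or less (log2 fold change -1.13, SE 0.363, adjusted p = 0.164). Mmp11 was at 3.06 to 5.40 CPM with AAV9-GFP and at 2.12 to 2.92 CPM with AAV9-Cardinal (log2 fold change -0.70, SE 0.196, adjusted p = 0.117). For Mmp2 the mice overlapped, since AAV9-GFP TAC replicate 1 at 32.9 CPM lay below AAV9-Cardinal TAC replicate 1 at 37.3 CPM (log2 fold change -0.52, SE 0.135, adjusted p = 0.10). Timp1 overlapped by 1 mouse in the same way (log2 fold change -1.25, SE 0.418, adjusted p = 0.182).

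The count of 0 changed when AAV9-Cardinal TAC replicate 1 or AAV9-GFP TAC replicate 1 was left out, and stayed 0 without any other single mouse. Without AAV9-Cardinal TAC replicate 1, the mouse with the highest Cardinal, 4 members passed, all lower with AAV9-Cardinal, namely Mmp23, Adamts2 (log2 fold change -0.69, adjusted p = 0.0122), Mmp2 (-0.62, adjusted p = 0.0271) and Timp2 (-0.38, adjusted p = 0.0422), beside 536 of all genes. Without AAV9-GFP TAC replicate 1 only Mmp2 passed (-0.64, adjusted p = 0.038), beside 57 of all genes. The part of these mice in the result was not tested further.

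In sham hearts no member passed in edgeR (0.0118% of all genes, 2 genes, did) or in DESeq2. None had an unadjusted p under 0.05, beside 442 of the 16971 genes, and in no member did the groups separate, beside 2.39% of all genes. The median log2 fold change over the members was -0.0377. The smallest p belonged to Adamtsl1, with means of 0.675 ± 0.18 CPM with AAV9-GFP and 0.942 ± 0.32 CPM with AAV9-Cardinal (SD, n = 4; log2 fold change 0.51, SE 0.244, unadjusted p = 0.0556 in edgeR).

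The TAC responses with both viruses share no mice and were set against each other as an interaction. No member passed in edgeR, beside 0.0118% of all genes, or in DESeq2. An unadjusted p under 0.05 was found in 4 of the 36 members, beside 1729 of the 16971 genes, a similar share. The 4 were Adamtsl1 (difference of log2 fold changes -1.05, SE 0.331, adjusted p = 0.322), Mmp3 (1.13, SE 0.455, adjusted p = 0.412), Adamts10 (-0.32, SE 0.136, adjusted p = 0.441) and Mmp11 (-0.65, SE 0.276, adjusted p = 0.441). For Timp1 the difference was -1.26 (SE 0.726, adjusted p = 0.57). The genes past the threshold with AAV9-GFP and not with AAV9-Cardinal are therefore not shown to respond differently.

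**Figure D4:**
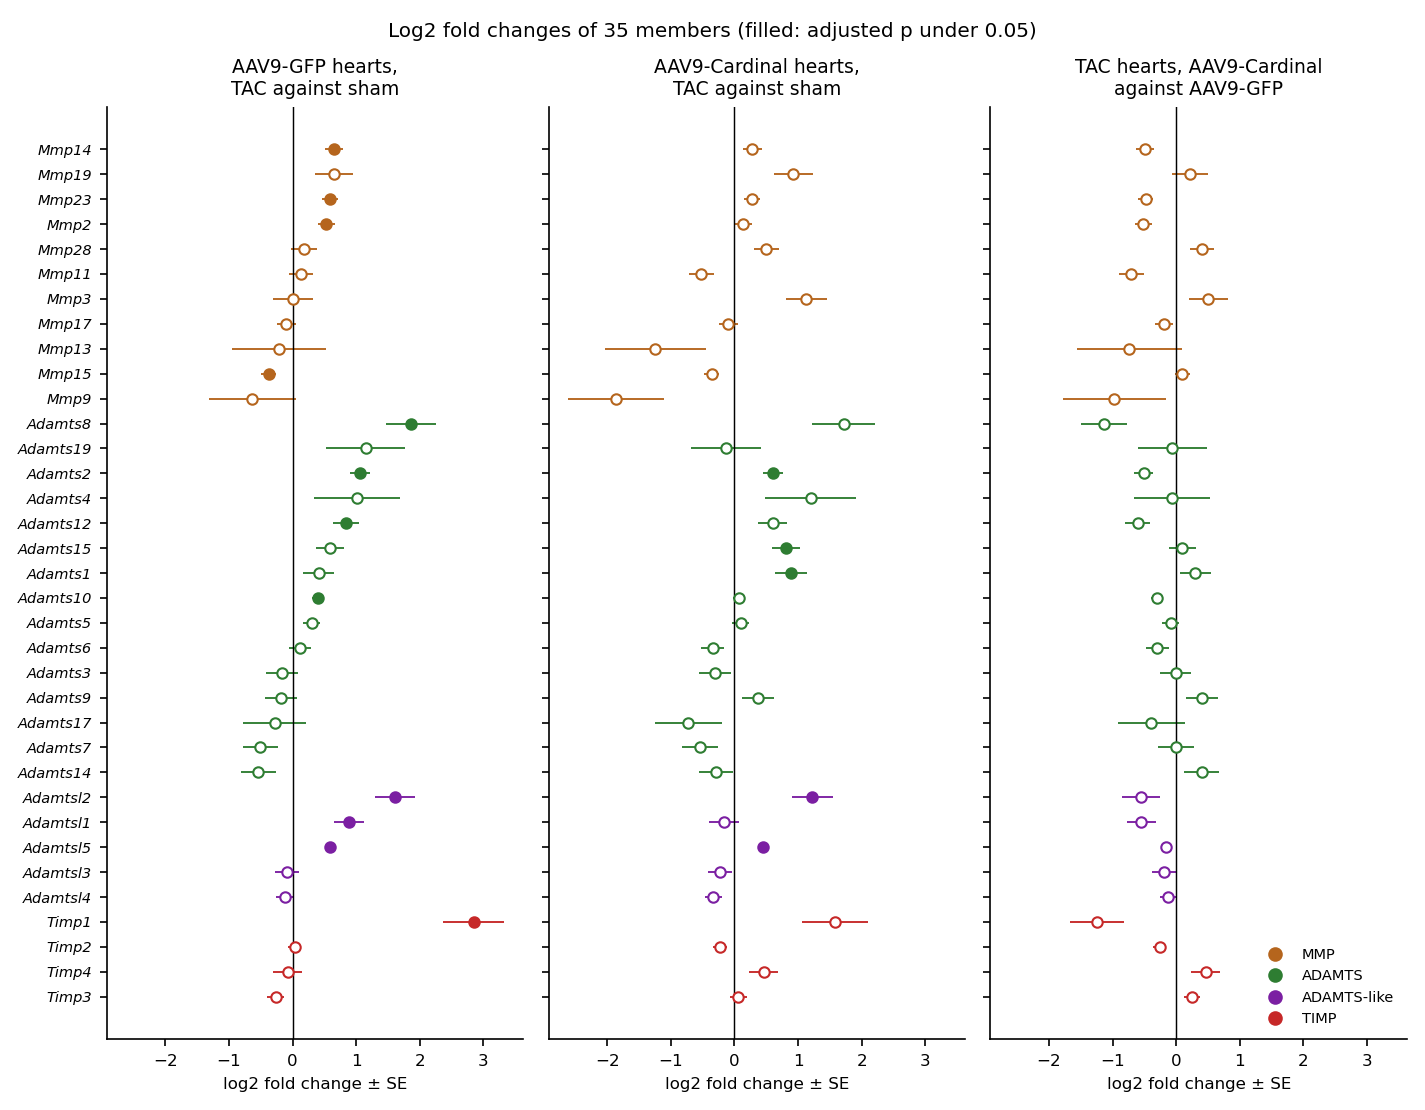
Each row is 1 of 35 members (Mmp12, at 0 counts in a whole group, is left out), the horizontal axes give the log2 fold change with its SE as a bar in 3 comparisons, color marks the family and filled circles mark an adjusted p under 0.05. Timp1 lies farthest to the right in AAV9-GFP hearts, at 2.85, no circle is filled in the comparison of viruses in TAC hearts, and 24 of the 36 members did not pass in AAV9-GFP hearts.

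Genes of matrix breakdown outside these families were read from a list of 54 regulators, proteases and substrates, of which 47 passed the filter. In AAV9-GFP hearts 13 rose and 5 fell with TAC, beside 8.42% and 8.89% of all genes, and in AAV9-Cardinal hearts 3 rose and 3 fell, beside 3.04% and 3.38%. The list was chosen with earlier results of these data known. Of its 10 tested substrates of ADAMTS enzymes 6 were higher and 1 was lower in AAV9-GFP hearts, and the other 7 genes that rose came from the 5 other groups of the list, with 1 or 2 genes each. Between the viruses in TAC hearts the median log2 fold change of the list was -0.135, and it was -0.0172 in sham hearts.

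Past the threshold with both viruses were 6 of the 47, of which 5 are given here. Vcan, the gene of versican, which ADAMTS proteases cleave, went from 9.11 ± 0.78 to 34.9 ± 12 CPM with AAV9-GFP and from 9.24 ± 1.1 to 25.6 ± 4.4 CPM with AAV9-Cardinal (SD, n = 4; log2 fold changes 1.94 and 1.47). Thbs1, the gene of thrombospondin 1, rose with log2 fold changes of 2.41 and 2.09. Lower after TAC with both viruses were Thbs2, its relative (-0.87 and -0.90), Htra1, a secreted serine protease (-0.62 and -0.33), and Adam23, an ADAM without protease activity (-0.77 and -0.73).

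In bulk tissue, fewer cells of a type and less RNA per cell cannot be told apart, and some cell type markers also changed with TAC. In AAV9-GFP hearts 3 of 7 fibroblast markers were higher after TAC (Lum, Col1a1 and Col1a2), and the list summed to 971 to 1130 CPM after sham and 1030 to 1280 CPM after TAC. Its other members, Pdgfra, Dcn, Tcf21 and Gsn, did not pass (log2 fold changes 0.18, 0.05, 0.36 and -0.20). Of the activated fibroblast markers 2 of 4 tested, Postn and Cilp, were higher, with log2 fold changes of 2.86 and 3.62. Comp (1.515) and Acta2, which went the other way (-0.69), did not pass. The list summed to 66.4 to 245 CPM after sham and 218 to 336 CPM after TAC, with Cthrc1 at 0 in AAV9-GFP sham. Among the cardiomyocyte markers 5 of 6 were lower, and 1 of 5 endothelial and 1 of 5 smooth muscle and pericyte markers were higher. In AAV9-Cardinal hearts Postn and Cilp were higher by 1.37 and 2.03 on the log2 scale, and Comp (1.149) and Acta2 (-0.10) did not pass. None of the 7 fibroblast markers passed there. Their median log2 fold change was 0.22, and that list summed to 980 to 1040 CPM after sham and 905 to 1170 CPM after TAC. Between the viruses in TAC hearts the median log2 fold change was -0.24 over the fibroblast list and -1.17 over the activated fibroblast list. The 5 macrophage markers had median log2 fold changes of 0.20 with AAV9-GFP and 0.0055 with AAV9-Cardinal after TAC, and they summed to 78.0 to 92.7 CPM in AAV9-GFP sham and 93.2 to 110 CPM in AAV9-GFP TAC hearts. The part of these cells in the members' changes was not tested.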

How the data were processed

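Raw counts of reads per gene, without normalization, were deposited by the authors with Ensembl identifiers and a column for each of the 16 mice. The submitters' processing notes name FastQC, HISAT2 2.1.0, edgeR 3.26.1 and the build GRCm38. The counting program, its annotation and its use of strand are not given in the sources used here. Symbols came from GENCODE M21 on GRCm38 (55394 of 55573 genes named, 179 not). All columns were used. No library appeared to be deposited under 2 names (chi-square per degree of freedom 5.44 to 16.3 between mice of a group). P-values measure the spread between these mice.

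Counts were tested in R 4.3.3 with edgeR 4.0.16 (TMM, quasi-likelihood fit of the 4 groups, 5 contrasts, Benjamini-Hochberg adjustment over the 16971 genes with at least 10 counts in 4 or more mice, threshold 0.05). SE values derive from the fit, and CPM from TMM-scaled totals. Permutation tests were exact and two-sided (70 labelings, log2 CPM with a prior count of 2). The same steps were tested on simulated data. Alternatives were DESeq2 1.42.0, RLE scaling, other filters, fewer mice or genes, and the mouse number as a block. Plots used matplotlib 3.10.9 under Python 3.11.15.

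The gene families and lists were chosen for description with earlier results of these data known; within the families, members were taken by symbol. Named were members past the threshold in any contrast, the TIMPs, gelatinases and tested membrane-type MMPs, the most abundant member of each other group, and list genes past the threshold with both viruses. Values per mouse are given for the members with the 10 smallest adjusted p in AAV9-GFP hearts and the TIMPs. The values per mouse of Adamts7 and Mmp12, the counts of groups without overlap when 1 mouse is left out, and other members named, among them Mmp3, Mmp19, Mmp28 and Adamts9, were chosen after their values were seen. Mmp1a, annotated as a pseudogene, was left out. Exons of 10 members that passed the filter overlap another gene, by up to 28.3% (Mmp19). One list gene that the rule names is not reported here.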

Additional observations from a re-analysis of the deposited data

Results flagged for a closer look

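A mouse far from the other 3 of its group was found in 7 of the 88 groups of 4 examined. Chance alone at 1 in 20 would give about 4.4, but the groups share mice between genes and are not independent. Only part of the members was examined. Adamts7, with its AAV9-GFP sham mouse at 25.9 CPM, was not among them. In AAV9-Cardinal TAC replicate 1 Adamtsl2 had 20.1 CPM, and it had between 13.4 and 14.1 CPM in the other mice of that group. Timp2 was at 86.3 CPM in the same mouse against 63.5 to 65.4 CPM in the others. Adamts8 was at 2.18 CPM in AAV9-GFP TAC replicate 1 against 1.31 to 1.43 CPM. In AAV9-Cardinal TAC replicate 5 Adamts8 was at 0.512 CPM against 0.783 to 0.799 CPM. In AAV9-Cardinal TAC replicate 6 Adamts10 had 27.2 CPM against 22.3 to 23.0 CPM. Mmp9 was at 0.316 CPM in AAV9-Cardinal sham replicate 1 against 0.779 to 0.865 CPM. Mmp3 was at 1.40 CPM in AAV9-GFP TAC replicate 4 against 2.05 to 2.17 CPM.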

How the results depend on the processing

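The count of members past the threshold in AAV9-GFP hearts stayed at 11 or 12 under the 7 other settings and between 10 and 13 when each mouse was left out in turn (all genes, 1965 to 3070). In AAV9-Cardinal hearts the count of 5 became 1 with no filter on low counts, 9 with DESeq2 and 0 with the replicate block, and ranged from 1 to 7 over the mice left out. Over all genes the count of 1089 there became 615 of 30343, 1370 of 16966 and 31 of 16971 in these settings, and ranged from 393 to 1443 over the mice left out. With only the 8 mice compared the member count was again 5, of which 1 was shared. Between the viruses in TAC hearts the count of 0 became 3 with DESeq2 (all genes, 415 against 17) and ranged from 0 to 4 over the mice left out (all genes, 0 to 536). It stayed 0 in sham hearts and for the difference in TAC response in all fits run. The cause of these shifts was not tested. The mouse numbers were not taken to pair the samples, since the labels do not say so and the numbers differ between groups. Of 16 same-numbered pairs from different groups 3, all between replicates 1, had a correlation above 0.1 (range -0.0401 to 0.212). These correlations were not set against differently numbered pairs and do not settle whether the numbers pair mice. With the number as a block 12 members passed in AAV9-GFP hearts (10 shared, with Adamts15 and Timp3 in place of Adamts12 and Mmp15) and none in the other 4 comparisons, beside 31 genes in all in AAV9-Cardinal hearts. Signs turned for Adamts15 between viruses in TAC hearts (-0.49 with the replicate block, -0.052 to 0.27 over mice left out), Timp2 (-0.066 to 0.096) and Timp4 (-0.41 to 0.10) in AAV9-GFP hearts, and Adamtsl1 (-0.33 to 0.012) and Timp3 (-0.056 to 0.15) in AAV9-Cardinal hearts, none past the threshold in those comparisons. At this depth Mmp9, Mmp12, Mmp13 and Adamts8 each had at least 1 mouse at 0 counts, so their fold changes rest on few reads.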
